A study of Mus musculus with 16 samples.

Results

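Fxyd2, Avp, Ptprn, Rfx4, Nell2, Cntnap5b, Caly and Cidea are 8 of the 19505 genes that Affymetrix arrays measured in sorted cells of the mouse olfactory mucosa, in 16 libraries. They were chosen by their measured difference between fractions: each read lower in the libraries titled GFP+ than in those titled GFP-, as S100a5 did. Their values in that contrast are therefore a description with no test. Each was matched by its symbol in the platform annotation and had 1 probe set.

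Olfactory sensory neurons detect odorants through receptors on their cilia, and odor reaches the nucleus as a change in calcium and cyclic AMP that alters which genes are transcribed. S100a5, a calcium-binding protein of these neurons, is known as a gene whose expression follows odor-driven activity, which is why a fluorescent reporter tied to it is used to sort recently active neurons. The 8 genes have different roles: Fxyd2 modulates the sodium pump, Avp encodes a secreted neuropeptide precursor, Ptprn and Caly are membrane proteins of vesicles, Nell2 and Cntnap5b act at the cell surface or outside the cell, Rfx4 is a transcription factor and Cidea sits on lipid droplets.

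All animals were C57BL/6 mice of both sexes, 7 to 12 weeks old, carrying S100a5-tauGFP, a green fluorescent protein (GFP) reporter of S100a5. Housing in clean-air chambers lasted 40 h, and from 26 h onward a pulse of 10 s was given every 20 min. The odor group was given isoamyl acetate mixed with whiskey lactone, and the vehicle group received filtered air. Cells from 3 mice were pooled before sorting by GFP. The 24 mice made 4 pools per treatment, so that each pool gave a titled GFP+ and a titled GFP- library, and each of the 4 groups held 4 libraries. How the reporter allele was built is not given in the sources used here, and each pool averages 3 animals.

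A pair of labelling problems bears on every value below. Title and cell type tag named opposite fractions in all 16 samples; the groups follow the titles, and if the tags were right every fraction difference would change sign. Both libraries of vehicle pool 3 (titled GFP+ and titled GFP-, replicate 3) ran opposite to those of the other 7 pools, so vehicle values are given with and without that pool. No library was moved to another group. S100a5 itself, the gene of the reporter, read lower in the titled GFP+ libraries, which goes against the titles. The deposited values reached 19.4 on a log2 scale, above the 16 that a 16-bit scanner allows, so differences stand in deposited log2 units, without folds. Among 5222 negative-control probe sets, the median was 5.46 and the 95th percentile 9.79.

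Cell type markers also differed between the titled fractions. The mean level of 12 mature olfactory neuron markers lay at 16.1 to 16.3 in the odor titled GFP- libraries and at 15.96 to 16.15 in the odor titled GFP+ libraries. Without vehicle pool 3, 8 of 8 neutrophil markers, 7 of 7 microvillar and ionocyte-like markers, 6 of 6 measured lymphocyte markers, 6 of 8 sustentacular markers, 5 of 6 globose basal cell markers, 4 of 8 immature neuron markers and 1 of 8 markers of endothelium, glia and fibroblasts were called higher in the odor titled GFP+ libraries (limma adjusted p under 0.05), where 8.59% of all genes were; 2 of 12 mature neuron markers were called lower, where 4.59% of all genes were. Over all 16 arrays the neutrophil and microvillar counts were as large, while 3 of 6 lymphocyte, 3 of 8 sustentacular, 4 of 6 globose basal, 3 of 8 immature neuron and 0 of 8 endothelial, glial and fibroblast markers were called higher and 1 of 12 mature neuron markers lower. With all 16 arrays, 4.57% of all genes were called higher and 2.39% lower. The mean over the neutrophil markers was 11.1 to 14.4 in the odor titled GFP+ libraries, against 4.58 to 6.24 in the odor titled GFP- libraries, and the sustentacular mean was 10.2 to 11.7 against 8.10 to 9.47. Immature neuron markers averaged 11.6 to 12.0 against 10.0 to 10.2, and all 4 horizontal basal cell markers lay below the negative-control median in the odor libraries. The part of these cell types in the members' differences was not tested. In bulk libraries such as these, fewer cells of a type and less RNA per cell cannot be told apart.

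Promoter sequence is shown for the secreted peptide Avp, for S100a5, and for the vesicle proteins Ptprn and Caly, whose upstream bases held a searched motif. The windows of Cntnap5b and Rfx4 were searched but are not shown. The genes were chosen for moving alike between fractions, so their shared movement says nothing about these sequences. RefSeq windows (GRCm38.p6) were searched for 5 of the 8 genes and S100a5. No window was found for Fxyd2 or Nell2. Any window on the chromosome of the Cidea probe set was left out of the search, so the search does not show whether Cidea has one. Each line gives the 250 bases before the annotated start, 5′ to 3′ on the gene's strand, with matches to TGACG (a cyclic AMP response half-site) or GTTGCC (an RFX half-site), on either strand, in capitals.
Avp, chr2:130582589-130582838, minus strand: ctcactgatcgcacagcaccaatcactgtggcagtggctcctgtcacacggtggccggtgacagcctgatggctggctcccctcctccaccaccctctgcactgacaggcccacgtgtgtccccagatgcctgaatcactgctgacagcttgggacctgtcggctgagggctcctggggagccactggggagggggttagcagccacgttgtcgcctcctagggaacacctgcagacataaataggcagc
S100a5, chr3:90608272-90608521, plus strand: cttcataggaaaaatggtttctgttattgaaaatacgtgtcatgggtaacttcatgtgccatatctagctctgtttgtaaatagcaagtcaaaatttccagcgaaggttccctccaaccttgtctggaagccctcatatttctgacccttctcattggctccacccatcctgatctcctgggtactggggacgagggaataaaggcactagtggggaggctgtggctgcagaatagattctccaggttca
Ptprn, chr1:75264209-75264458, minus strand: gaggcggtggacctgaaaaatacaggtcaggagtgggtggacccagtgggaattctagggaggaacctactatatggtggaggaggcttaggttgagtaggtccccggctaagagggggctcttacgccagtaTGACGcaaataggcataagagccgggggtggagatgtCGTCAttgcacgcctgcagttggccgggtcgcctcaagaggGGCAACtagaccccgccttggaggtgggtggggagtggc
Caly, chr7:140082549-140082798, minus strand: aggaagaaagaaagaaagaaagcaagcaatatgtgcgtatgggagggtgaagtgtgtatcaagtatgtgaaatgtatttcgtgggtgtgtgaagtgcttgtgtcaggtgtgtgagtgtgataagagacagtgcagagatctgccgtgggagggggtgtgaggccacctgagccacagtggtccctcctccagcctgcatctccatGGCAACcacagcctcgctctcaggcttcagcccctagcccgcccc
Ptprn, Caly and Rfx4 each had a pair of windows, for different annotated starts, and the second window of each held none of the searched motifs. The first Ptprn window held TGACG at -117 to -113 on the gene's strand and at -80 to -76 on the other strand, counted from the annotated start, and GTTGCC at -39 to -34 on the other strand. The first Caly window held GTTGCC at -45 to -40 on the other strand. In the first Rfx4 window, which reaches 50 bases past the start like the others, TGACG stood at 17 to 21. Of 32851 RefSeq windows of the same length, 20.8% held TGACG and 12.5% held GTTGCC on either strand. Of the 9 windows of these genes, 2 held TGACG and 2 held GTTGCC, too few windows to set these counts apart from those shares. The windows of Avp, S100a5 and Cntnap5b held none of the searched motifs. No window of these genes held TGACGTCA (1.79% of all windows), which contains TGACG, the palindromic Ebf motif (0.904%), TAATTA (5.29%) or TATAAA (13.6%). A match describes letters in a window and not a bound site.

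Fxyd2, the gamma subunit of the sodium-potassium pump best known from kidney tubules, had the widest gap of the members. In odor, its titled GFP+ libraries read 7.45, 7.54, 7.64 and 6.78 (replicates 1 to 4) and its titled GFP- libraries read 11.51, 11.98, 10.67 and 11.34. In vehicle, the same 4 replicates read 7.06, 7.77, 11.09 and 7.42 titled GFP+ and 12.01, 12.11, 7.76 and 11.92 titled GFP-. Only the vehicle replicate 3 libraries broke the separation, and they did so by exchanging levels: 11.09 falls among the other pools' titled GFP- values and 7.76 among their titled GFP+ values. The mean within-pool difference, titled GFP+ minus titled GFP-, was -4.02 ± 0.70 (SD, n = 4 pools) in odor and -2.62 ± 3.97 (SD, n = 4) in vehicle, or -4.60 ± 0.32 (SD, n = 3) without vehicle pool 3. Over the 7 pools other than vehicle pool 3 it was -4.27 ± 0.61, the twelfth most negative of the 19505 genes.

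Avp encodes the precursor of vasopressin, a hormone and neuropeptide made mainly by hypothalamic neurons. Its odor libraries read 6.49, 6.80, 6.72 and 7.19 titled GFP+ and 8.24, 8.93, 8.90 and 9.43 titled GFP-. Vehicle libraries read 5.70, 7.02, 8.05 and 6.52 titled GFP+ against 9.06, 8.39, 6.53 and 8.75 titled GFP-. The odor groups did not overlap, and in vehicle only pool 3 ran the other way. Within pools the difference averaged -2.07 ± 0.22 (SD, n = 4) in odor and -2.32 ± 1.00 (SD, n = 3) in vehicle without pool 3, or -1.36 ± 2.09 (SD, n = 4) with it. The single vehicle pools lay at -3.36 (pool 1), -1.36 (pool 2) and -2.23 (pool 4). Every Avp library lay below the negative-control 95th percentile of 9.79, and its mean lay above 86.2% of the negative controls.

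Ptprn, a receptor-type phosphatase-like protein of dense-core vesicle membranes, read 7.44, 7.42, 8.51 and 8.41 in the odor titled GFP+ libraries and 10.06, 9.62, 9.51 and 10.50 in the odor titled GFP- libraries. In vehicle it read 8.11, 7.88, 8.90 and 8.48 titled GFP+ and 9.72, 9.69, 7.42 and 10.05 titled GFP-. The smallest gap of an odor pool was in pool 3, at -0.99, where the titled GFP+ level was the highest and the titled GFP- level the lowest of the odor libraries of each kind. Mean differences were -1.97 ± 0.69 (SD, n = 4) in odor and -1.66 ± 0.13 (SD, n = 3) in vehicle without pool 3, or -0.88 ± 1.57 (SD, n = 4) with it.

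Caly, calcyon, is a neuronal vesicle protein that binds clathrin light chain. Its odor levels were 7.47, 7.64, 7.59 and 7.84 titled GFP+ against 9.04, 9.37, 9.01 and 9.59 titled GFP-. Its vehicle levels were 7.49, 7.65, 8.62 and 7.81 titled GFP+ against 9.53, 9.43, 6.70 and 9.02 titled GFP-. The titled GFP- library of vehicle pool 3 lay below all of the other 15 libraries for this gene, titled GFP+ ones included. The odor difference, -1.62 ± 0.15 (SD, n = 4), had the smallest spread of the 8 genes, and the vehicle difference was -1.68 ± 0.43 (SD, n = 3) without pool 3 and -0.78 ± 1.83 (SD, n = 4) with it. All Caly libraries also lay below the negative-control 95th percentile of 9.79, with a mean above 90.4% of the negative controls.

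Nell2 encodes a secreted glycoprotein that binds the axon guidance receptor Robo3. In odor it read 4.74, 5.50, 4.67 and 5.11 titled GFP+ against 6.25, 5.99, 6.60 and 5.85 titled GFP-, and in vehicle 4.44, 5.08, 6.25 and 4.93 against 6.29, 6.67, 5.37 and 6.86. The odor groups did not overlap, though the highest titled GFP+ value (5.50) came near the lowest titled GFP- value (5.85). The within-pool difference was -1.17 ± 0.67 (SD, n = 4) in odor, -1.79 ± 0.18 (SD, n = 3) in vehicle without pool 3 and -1.12 ± 1.34 (SD, n = 4) with it. Its mean over 16 arrays lay above only 54.5% of the negative-control probe sets. Outside vehicle pool 3, every titled GFP+ value but the 5.50 of odor replicate 2 lay below the negative-control median of 5.46. The size of these differences is therefore uncertain.

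Cntnap5b, a contactin-associated protein of the neurexin superfamily, had a mean above only 46.2% of the negative controls, fewer than any other of the 8. Its odor libraries read 5.31, 4.25, 3.85 and 4.81 titled GFP+ and 6.47, 5.25, 6.09 and 6.45 titled GFP-, and its vehicle libraries 4.85, 4.17, 5.99 and 4.30 against 6.13, 6.49, 4.41 and 6.03. It was the only member whose odor groups overlapped, since replicate 1 titled GFP+ (5.31) read above replicate 2 titled GFP- (5.25), although each odor pool on its own ran lower in its titled GFP+ library. Differences averaged -1.51 ± 0.56 (SD, n = 4) in odor and -1.78 ± 0.52 (SD, n = 3) in vehicle without pool 3, or -0.94 ± 1.73 (SD, n = 4) with it. Outside vehicle pool 3, every titled GFP+ value lay below the negative-control median of 5.46, so the size of these differences is uncertain.

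Rfx4, a winged-helix transcription factor of brain development and ciliated cells, read 8.49, 8.70, 9.08 and 8.996 in the odor titled GFP+ libraries and 10.00, 10.75, 10.47 and 10.77 in the odor titled GFP- libraries. Vehicle levels were 8.55, 9.17, 10.07 and 9.01 titled GFP+ and 9.94, 10.31, 9.14 and 10.28 titled GFP-. Both libraries of vehicle pool 3 fell inside the range of the opposite fraction. The difference was -1.68 ± 0.29 (SD, n = 4) in odor, -1.27 ± 0.12 (SD, n = 3) in vehicle without pool 3 and -0.72 ± 1.10 (SD, n = 4) with it.

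Cidea, a lipid droplet protein known from brown fat, had a mean above 98.2% of the negative controls. It read 11.42, 11.36, 10.97 and 10.89 titled GFP+ and 12.76, 12.27, 11.83 and 12.36 titled GFP- in odor. In vehicle it read 10.93, 11.36, 11.67 and 11.24 against 12.52, 12.63, 11.08 and 12.58. Its mean odor difference was the smallest of the 8, -1.14 ± 0.30 (SD, n = 4), beside -1.40 ± 0.17 (SD, n = 3) in vehicle without pool 3 and -0.90 ± 1.01 (SD, n = 4) with it.

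S100a5 read 15.39, 15.11, 15.05 and 15.55 in the odor titled GFP+ libraries and 16.04, 16.66, 16.55 and 16.48 in the odor titled GFP- libraries. Its vehicle libraries read 14.59, 14.91, 16.37 and 15.47 titled GFP+ against 16.44, 16.35, 14.99 and 16.27 titled GFP-. Its within-pool difference was -1.16 ± 0.44 (SD, n = 4) in odor, -1.37 ± 0.53 (SD, n = 3) in vehicle without pool 3 and -0.68 ± 1.44 (SD, n = 4) with it. All 8 members had the direction of S100a5 in each of the 8 pools, vehicle pool 3 included.

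**Figure D1:**
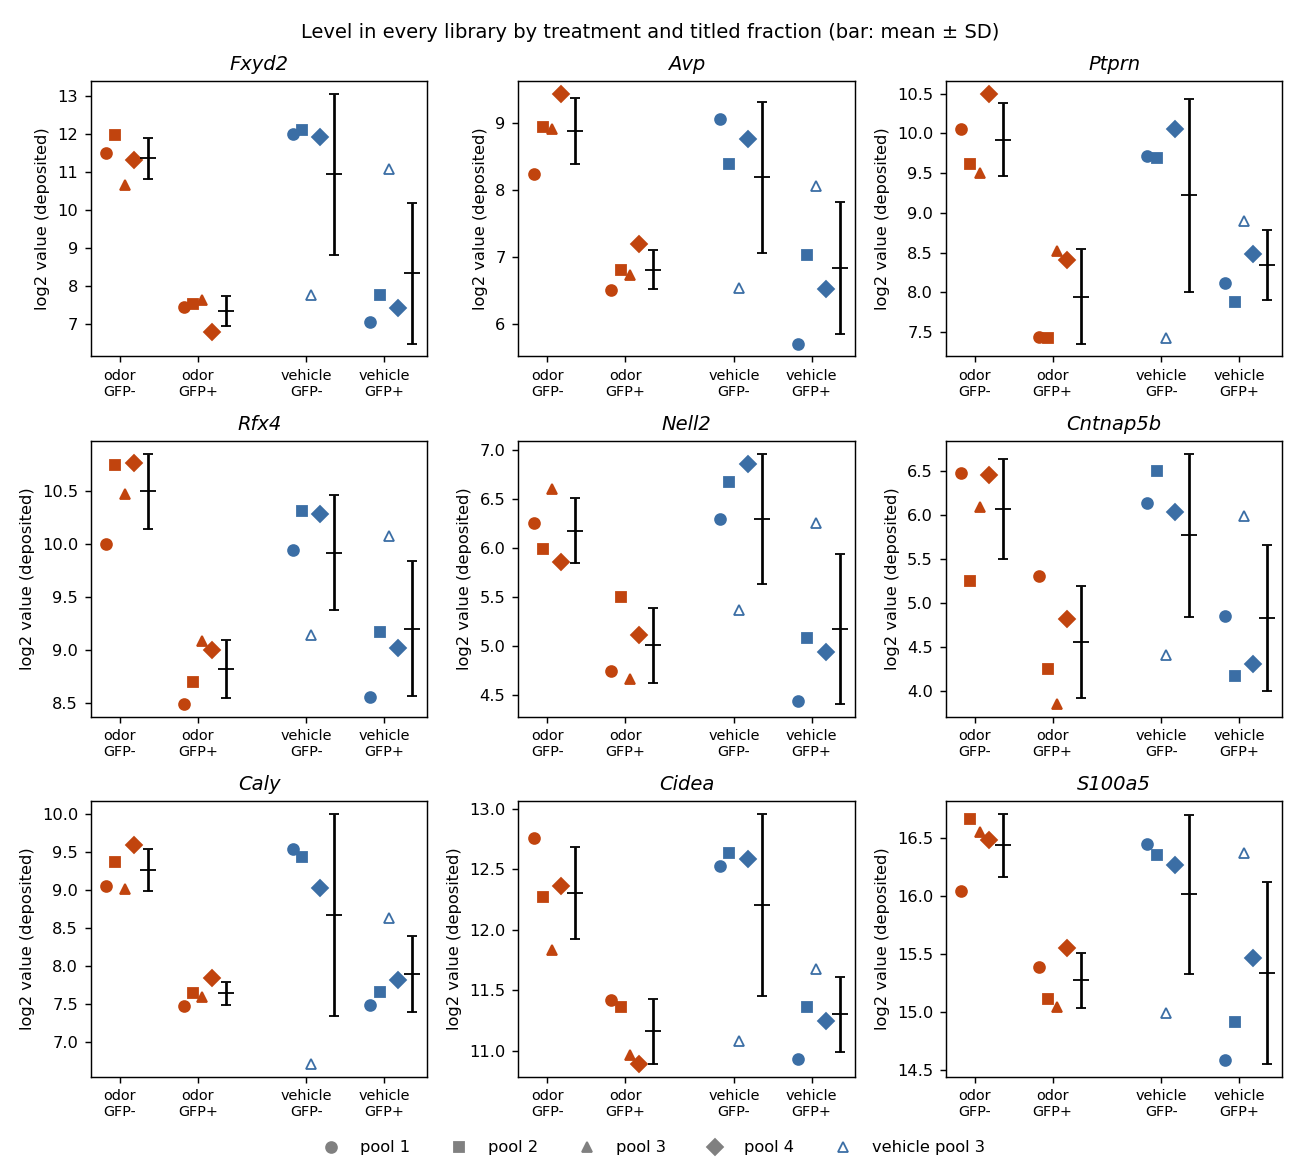
Deposited log2 level of each of the 8 genes and S100a5 in all 16 libraries, 1 panel per gene with its own vertical axis; points are single libraries by treatment and titled fraction, open triangles are vehicle pool 3, and bars are the mean ± SD of 4 libraries. In odor, the titled GFP+ points lie below the titled GFP- points for every gene but Cntnap5b, and in vehicle the open triangles run the other way.

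In odor, 7 of the 8 genes had every titled GFP+ library below every titled GFP- library, which 7.6% of all genes did. In vehicle none of the 8 did with all libraries (2.25% of all genes) and 8 of 8 did without pool 3 (14.9%). All 8 were lower in titled GFP+ in each of the 7 other pools, as were 10.5% of all genes, and 8 of 8 were also higher there in vehicle pool 3, as were 7.95%. The rule chose the genes on this contrast, so these counts describe the choice. The choice had no threshold on size: over the 7 pools, Cidea had the smallest mean gap of the 8 (-1.26 ± 0.27, SD), ranked 325 of all genes from the most negative, and S100a5 stood at -1.25 ± 0.45, ranked 328.

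**Figure D2:**
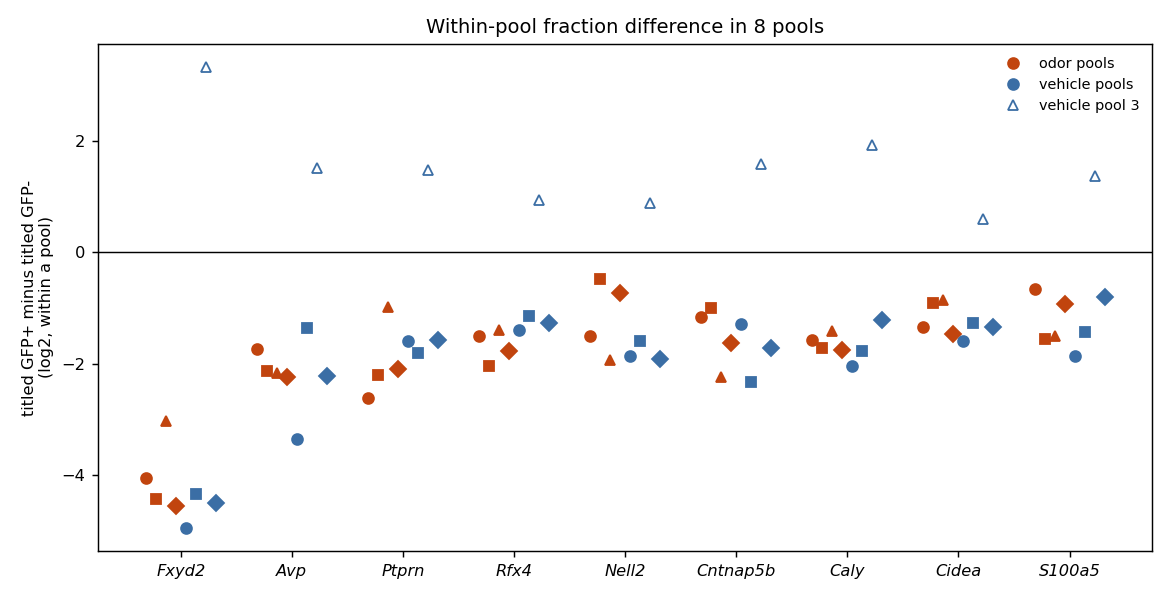
Within-pool difference (titled GFP+ minus titled GFP-, deposited log2 scale) for the 8 genes and S100a5; each point is 1 of the 8 pools, and open triangles are vehicle pool 3. All points but those of vehicle pool 3 lie below 0, with Fxyd2 between -4.95 and -3.03 in those 7 pools and at 3.33 in vehicle pool 3.

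The comparison of odor with vehicle was tested on the mean of both libraries of a pool, which does not depend on which library is which fraction. None of the 8 genes passed (0 of 8 at adjusted p under 0.05, limma, 4 against 4 pools), where 0.0103% of all genes, 2 of 19505, were called. At unadjusted p under 0.05 (limma) there were 0 of 8, where 7.19% of all genes, 1402 of 19505, were. With 8 genes, 0 lies near that share. Pool means of odor and vehicle overlapped for each of the 8, where 2.11% of all genes had every odor pool below every vehicle pool and 2.26% had every odor pool above. Of the members, 5 had a higher odor mean and 3 a lower one, with a median difference of 0.05 against -0.02 over all genes.

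Avp had pool means of 7.84 ± 0.39 (SD, n = 4) in odor and 7.50 ± 0.20 (SD, n = 4) in vehicle, a difference of 0.34 ± 0.19 (SE, limma adjusted p = 0.763). Fxyd2 averaged 9.36 ± 0.32 in odor and 9.64 ± 0.22 in vehicle, a difference of -0.28 ± 0.17 (SE, limma adjusted p = 0.781). Leaving out 1 pool in turn moved Avp between 0.18 (without odor pool 4) and 0.49 (without odor pool 1), and Fxyd2 between -0.18 (without odor pool 4) and -0.41 (without odor pool 2). For both genes the ranges of the odor and vehicle pools overlapped. The other 6 differences ran from -0.15 ± 0.14 (SE) for Nell2 to 0.17 ± 0.20 (SE) for Caly, with limma adjusted p from 0.859 to 0.992. S100a5 differed by 0.18 ± 0.12 (SE, limma adjusted p = 0.805). The genes that were called were Camk2n1, an inhibitor of calmodulin-dependent kinase II, at 1.54 ± 0.13 (SE, limma adjusted p = 0.00277), and Pcdh10, a protocadherin, at 2.37 ± 0.23 (SE, limma adjusted p = 0.0056), both higher in odor. A missed threshold with 4 pools a side does not show that the members' levels were equal.

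**Figure D3:**
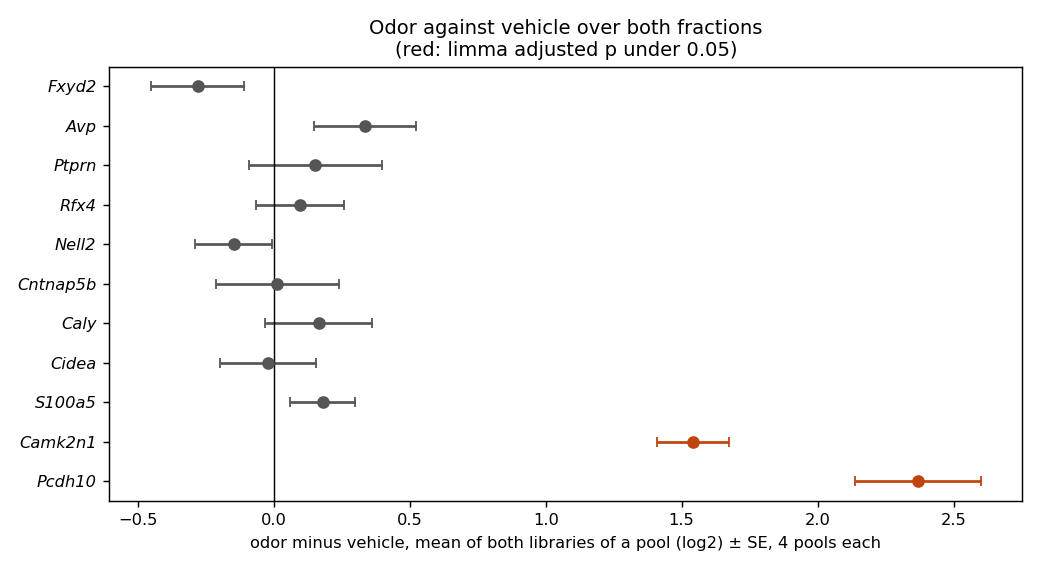
Odor minus vehicle difference of pool means (deposited log2 scale, 4 odor and 4 vehicle pools) for the 8 genes and S100a5, and for Camk2n1 and Pcdh10, with limma standard errors as bars. The members' values run from -0.28 for Fxyd2 to 0.34 for Avp and none passed the test, while the red points mark the genes called, at 1.54 and 2.37.

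Across the 8 pool means, Avp followed S100a5 most closely, with Pearson's r = 0.80 (exact permutation p = 0.0165, adjusted 0.132) and Spearman's rho = 0.69 (exact permutation p = 0.0694, adjusted 0.555). Leaving out odor pool 4 and vehicle pool 1, the pools farthest from the S100a5 median, brought r to 0.55, so the relation rests in part on those pools. Rfx4 had r = 0.69 (exact permutation p = 0.0631, adjusted 0.252), which fell to 0.25 without the same pools. The other 6 genes had r between -0.40 for Fxyd2 and 0.47 for Ptprn. None of the 8 relations passed the adjustment over the 8.

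Within a titled fraction, over the 7 libraries left without vehicle pool 3, the level of S100a5 did not order the members' levels in a way that passed the adjustment over 16 relations, which were added after the values were seen. Avp had r = 0.58 in the titled GFP+ libraries, which turned to -0.94 without the 2 libraries farthest from the S100a5 median, so its sign rests on those 2. In the titled GFP- libraries Avp had r = 0.69, or 0.55 without the 2 farthest. Fxyd2 had r = -0.22 in titled GFP+ and -0.12 in titled GFP-, or -0.95 and -0.78 without the 2 farthest, which left 5 libraries. Cidea ran against S100a5 in the titled GFP- libraries, with r = -0.75 (exact permutation p = 0.0562, adjusted 0.436) and rho = -0.93 (exact permutation p = 0.00675, adjusted 0.108), and r was -0.81 without the 2 farthest. Of the 16 values of r, 10 were positive and 6 negative.

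**Figure D4:**
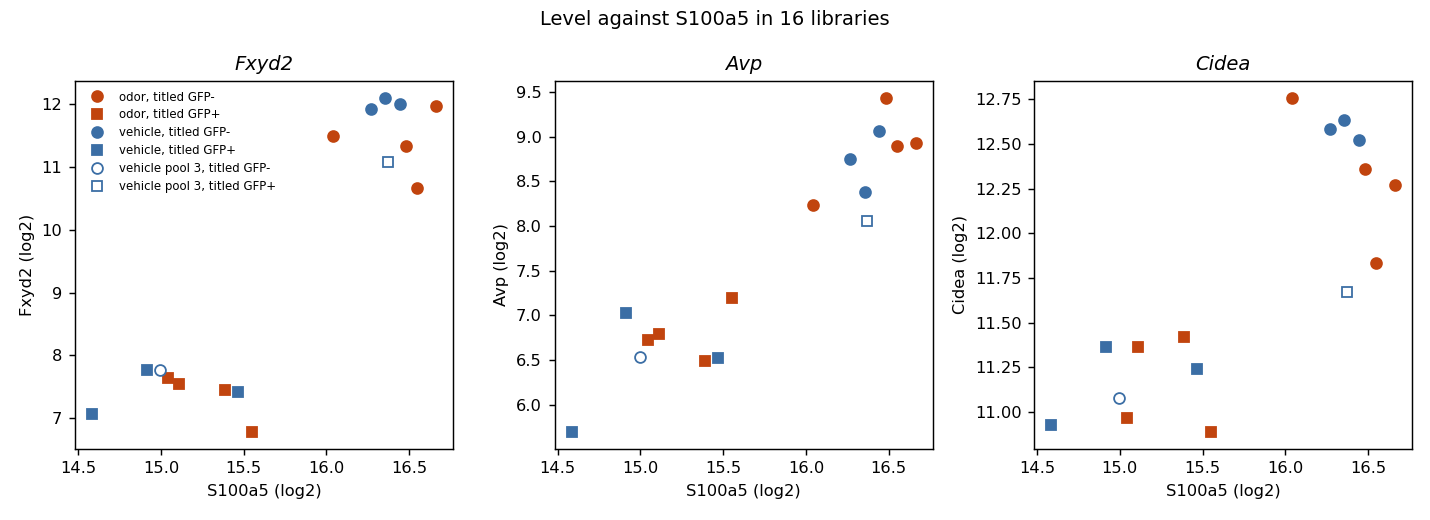
Level of Fxyd2, Avp and Cidea against the level of S100a5 (both deposited log2) in the 16 libraries; colour gives the treatment, shape the titled fraction, and open symbols vehicle pool 3. The titled fractions form separate clouds along the S100a5 axis, and the open symbols lie on the side of the opposite fraction.

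As a description over all 16 libraries, which share their sort and so fall into the clouds of the fractions, the 28 pairs of members had r from 0.74 (Nell2 and Ptprn) to 0.94 (Avp and Rfx4), with a median of 0.85. Against S100a5 the values ran from 0.81 for Cidea to 0.94 for Avp. Such values were not particular to the members. Over all genes, 37 were more like S100a5 than Avp was, and 460 were more like it than Cidea was. Nell2 ranked 556 of 19504 genes in likeness to Ptprn. Receptor genes and unnamed loci were left out when the genes most like each gene, given next, were picked. The genes most like Fxyd2 were then Rgs7 (0.96), Slc25a15 (0.96), Pcp4l1 (0.96), Pde1c (0.95) and Syngr1 (0.95). Rgs7, a regulator of G-protein signalling, was also among the 3 genes most like Ptprn (0.94) and Caly (0.96), and Pde1c, a calcium- and calmodulin-dependent phosphodiesterase of olfactory cilia, was among those of Cidea (0.96). The remaining leading genes were Galnt15 (0.96) and Ocrl (0.93) for Ptprn, Hs3st1 (0.95) and Inpp5f (0.95) for Caly, and Chgb (0.96) and Inpp5f (0.95) for Cidea. Among the genes kept, Avp was most like the member Rfx4, then Brinp2 (0.94) and Clip4 (0.94). With all 19504 other genes counted, Rfx4 ranked 13 in likeness to Avp. Rfx4 was most like Adam28 (0.96), Tmem64 (0.95) and Slc4a4 (0.95), Nell2 like Eml1 (0.93), Gpr162 (0.92) and Clip4 (0.90), and Cntnap5b like Tmem178 (0.91), Sema3e (0.91) and Syngr1 (0.90). S100a5 was most like Tmem64 (0.95), Pcp4l1 (0.95) and Syngr1 (0.94), of which Tmem64 is shared with Rfx4 and the other two with Fxyd2.

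Relatives of the 8 genes, by protein family or pathway, gave 70 measured genes in 8 lists. In the odor pools, 7 of the 70 (10%) passed the test between titled fractions over all 16 arrays, 4 higher and 3 lower in titled GFP+, where 6.97% of all genes did, 4.57% higher and 2.39% lower. Without vehicle pool 3, 12 of the 70 (17.1%) passed against 13.2% of all genes, 7 of them higher (8.59% of all genes) and 5 lower (4.59% of all genes). Their median difference in odor was -0.16, beside -0.08 over all genes. In vehicle, 0 of 70 passed with all 16 arrays, as did 0 of all genes (8 of 70 and 1912 of 19505 at unadjusted p under 0.05, limma), and 6 of 70 (8.57%) without pool 3, where 11.2% of all genes passed, 3 of them higher (7.86% of all genes) and 3 lower (3.32% of all genes). No relative passed between odor and vehicle (7 of 70, 10%, at unadjusted p under 0.05, limma, where 7.19% of all genes were). With the pool of mice as a replicate block, 0 of the 70 passed in odor over 16 arrays and 13 did without vehicle pool 3.

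Among 9 pump and FXYD genes, Fxyd6, a relative of Fxyd2 found in nervous tissue, was called higher in the odor titled GFP+ libraries, opposite to Fxyd2. It read 9.27, 9.12, 8.26 and 8.81 titled GFP+ and 7.55, 8.10, 7.55 and 7.49 titled GFP-, a difference of 1.19 ± 0.23 (SE, limma adjusted p = 0.0286). In vehicle it read 8.52, 8.32, 7.86 and 7.85 against 8.08, 8.38, 8.60 and 8.50, a difference of -0.09 (limma adjusted p = 0.883) without pool 3. The odor groups stood apart and the vehicle groups overlapped, but the test of the odor difference against the vehicle difference did not pass the adjustment over all genes. Without vehicle pool 3 it gave 1.29 ± 0.34 (SE, limma unadjusted p = 0.00198, adjusted p = 1.000), and over all 16 arrays 1.45 ± 0.32 (SE, limma unadjusted p = 0.0004, adjusted p = 0.999). The pump subunits Atp1a4 (-0.35 ± 0.15, limma adjusted p = 0.167) and Atp1b2 (0.59 ± 0.33, limma adjusted p = 0.33) did not pass.

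Of 15 dense-core vesicle and prohormone-processing genes, Pam and Cadps2 were called higher and Scg3 lower in the odor titled GFP+ libraries. Pam, which amidates the ends of peptide hormones, read 12.65, 12.55, 10.97 and 10.23 titled GFP+ and 7.92, 7.61, 6.99 and 7.13 titled GFP-. Its difference was 4.19 ± 0.97 (SE, limma adjusted p = 0.0286) in odor and 3.88 (limma adjusted p = 0.000136) in vehicle without pool 3. Cadps2, a priming factor of dense-core vesicles, differed by 2.18 ± 0.56 (SE, limma adjusted p = 0.0353) in odor and 1.53 (limma adjusted p = 0.000126) in vehicle without pool 3. Scg3, a granin-family protein of those vesicles, differed by -0.44 ± 0.12 (SE, limma adjusted p = 0.0475) in odor and -0.57 (limma adjusted p = 0.0201) in vehicle without pool 3. Chgb, chromogranin B, was the gene most like Cidea once receptors and unnamed loci were left out. In odor it read 10.18, 10.08, 10.01 and 10.07 titled GFP+ and 11.44, 10.85, 10.47 and 11.27 titled GFP-, with no overlap. It passed in odor only without vehicle pool 3 (-0.92, limma adjusted p = 0.0535 with that pool and 0.00295 without it). In vehicle without that pool it differed by -1.19 (limma adjusted p = 0.00134). In odor without that pool, the convertase Pcsk1 was also called lower (-0.89, limma adjusted p = 0.0256), and the granin Scg2 (0.80, limma adjusted p = 0.00743) and the vesicle GTPase Rab27b (0.89, limma adjusted p = 0.0218) higher. Those 3 were named because they are among the genes called without the pool. None of them passed in vehicle without it. Genes of this list were thus called in both directions, in either setting.

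Of 7 CIDE and perilipin genes, Plin2, which coats lipid droplets, was called higher and Cidec, a relative of Cidea, lower in the odor titled GFP+ libraries. Plin2 read 8.13, 8.04, 7.34 and 6.41 titled GFP+ against 4.68, 4.89, 4.55 and 3.84 titled GFP-, a difference of 2.99 ± 0.80 (SE, limma adjusted p = 0.038). All 4 of its odor titled GFP- values lay below the negative-control median, so the size of the difference is uncertain. In vehicle without pool 3, Plin2 differed by 3.91 (limma adjusted p = 8.03e-06), with titled GFP- values of at most 4.46, also below that median. The direction is opposite to that of Cidea. Cidec differed by -0.73 ± 0.20 (SE, limma adjusted p = 0.0434) in odor and -0.77 (limma adjusted p = 0.0501) in vehicle without pool 3. Its mean of 4.45 lay below the negative-control median. Plin3 differed by 0.78 ± 0.24 (SE, limma adjusted p = 0.0627, or 0.0286 without vehicle pool 3).

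In the family of Cntnap5b, 1 of 12 genes was called, Cntnap4, lower by -0.87 ± 0.24 (SE, limma adjusted p = 0.0428) in the odor titled GFP+ libraries, while Cntnap5a (-0.53 ± 0.17, limma adjusted p = 0.0733) and Cntnap1 (-0.28 ± 0.14, limma adjusted p = 0.262) did not pass. In vehicle without pool 3, Cntn5 was called lower (-0.65, limma adjusted p = 0.04), against 0.03 in odor. Its mean of 3.71 lay below the negative-control median. Cntnap4 did not pass there (-0.66, limma adjusted p = 0.0952). In odor, no gene passed in the lists of vasopressin and oxytocin (5 genes), RFX factors (7), NELL and Robo (5) or calcyon and clathrin (10), each with 1 gene at unadjusted p under 0.05 (limma), where 21.7% of all genes were. The vasopressin receptors Avpr1a, Avpr1b and Avpr2 differed by -0.39, -0.31 and -0.24, with means of 3.51, 3.90 and 4.28, below the negative-control median. Rfx2, Rfx7 and Rfx8 differed by -0.53, -0.36 and -0.38, against -1.68 for Rfx4. Robo1, Robo2 and Nell1 differed by -0.27, 0.34 and -0.10, and Ap3d1, Drd1 and Drd5 by -0.27, -0.30 and -0.34. Limma adjusted p for these 12 genes was at least 0.186.

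The calls among relatives depended on which pools entered. Leaving out any 1 odor pool with vehicle pool 3 kept left 0 of the 70 called, while leaving out vehicle pool 1, 2, 3 or 4 left 4, 3, 12 and 4 called. Calls among all 19505 genes moved likewise. They numbered 1, 2, 2 and 1 without odor pool 1, 2, 3 or 4, and 1303, 800, 2570 and 822 without vehicle pool 1, 2, 3 or 4. The neutrophil, sustentacular and other marker levels given above differed between the same libraries, and their part in the relatives' differences was not tested.

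**Figure D5:**
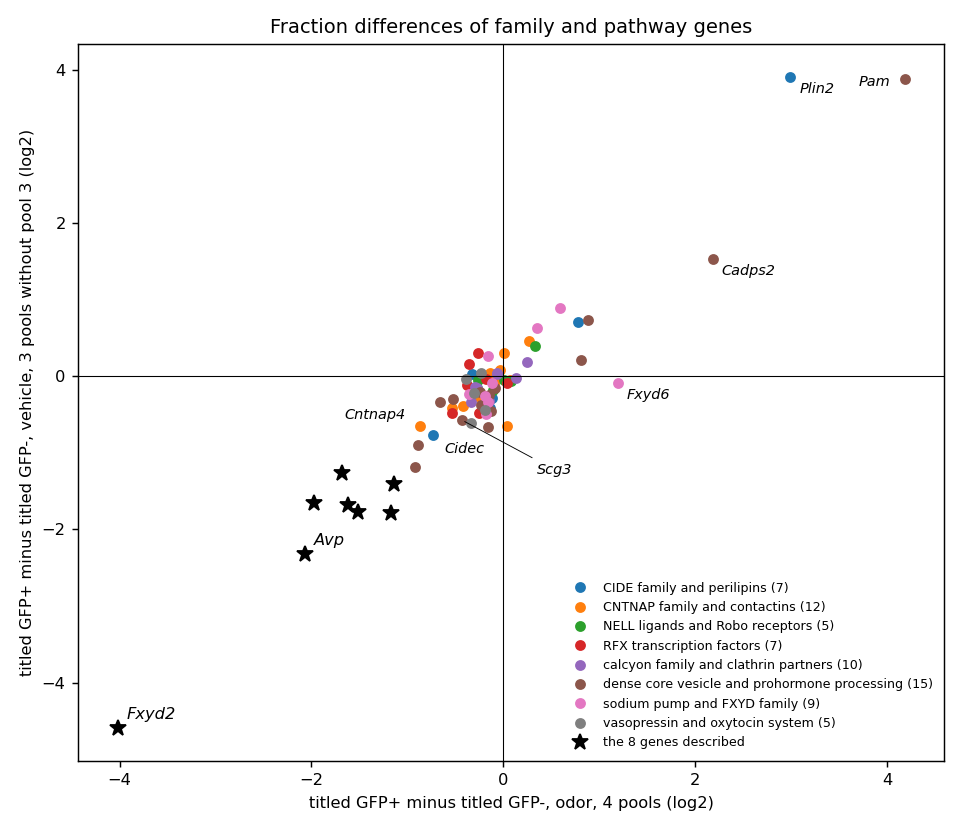
Difference between titled fractions (titled GFP+ minus titled GFP-, deposited log2 scale) in odor against vehicle without pool 3 for the 70 relatives, coloured by list, and for the 8 members as stars; the 7 relatives called in odor over all 16 arrays are named. Pam and Plin2 lie near 4 and 3 in odor, and Fxyd6 lies at 1.19 in odor and near 0 in vehicle.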

How the data were processed

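Per the labels, RNA (50 to 100 ng) from sorted cells was hybridised to Affymetrix arrays. The authors deposited log2 values; the submitters' processing notes name Affymetrix Expression Console, and its version, the summarization method and a build were not given in the sources used here. Of 28846 probe sets, 6640 were controls, 19572 had 1 symbol, 0 had several and 2634 had no listed gene; where a gene had several (55 genes), the probe set with the highest mean over 16 arrays was used. Library medians lay at 6.13 to 6.45. Arrays have no read depth; their number limits the precision.

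Groups followed the titles. Odor was tested against vehicle on pool means, and titled fractions in a model of 4 group means without a block, with limma 3.58.1 (lmFit, eBayes, two-sided) in R 4.3.3. Adjusted p is Benjamini-Hochberg over 19505 genes at 0.05. The scripts were tested on simulated data. Correlations used exact two-sided permutation tests. One set of relations, within titled fractions, was added after the values were seen. The Ebf motif, searched by name, was the palindrome bound by Ebf factors. The members and gene lists were chosen with earlier results of these data known. Relatives named are up to 3 per list with the smallest p in the odor fraction contrast, plus genes called; Chgb was named for its likeness to Cidea. Genes most like a member exclude receptors and unnamed loci.

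The 2 libraries of a pool come from the same 3 mice, so the pool pairs them by design. Their deviations from group means correlated at 0.13 to 0.25 in odor and, without vehicle pool 3, at -0.02 to 0.29 in vehicle; with it, vehicle pools ran from -0.75 to -0.06. Alternatives were centring, a filter on dim genes, mean of probe sets, eBayes with trend and robust, pool blocks, and leaving out each pool.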

Additional observations from a re-analysis of the deposited data

Results flagged for a closer look

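Of 54 groups of 4 libraries or pools examined for a value far from the others, 6 held one. Chance gives about 1 in 20 for groups that are independent. These groups share libraries, and the genes were chosen to move alike, so that rate is no baseline for the 6. In vehicle titled GFP-, replicate 3 lay far below the other replicates for Fxyd2 (7.76), Ptprn (7.42), Cidea (11.08) and S100a5 (14.99). All 4 of these values come from 1 library, that of vehicle pool 3, which also ran opposite to the titles. Among pool means, Caly was lowest in vehicle pool 3 (7.66), and Nell2 was lowest in vehicle pool 1 (5.36), each far from the other vehicle pools.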

How the results depend on the processing

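None of the 8 members passed odor against vehicle under any of the alternatives, and Fxyd2, Avp, Nell2 and S100a5 kept their direction in all of those run. When each pool was left out in turn, the difference ranged from -0.055 to 0.31 for Ptprn, -0.0086 to 0.23 for Rfx4, -0.18 to 0.20 for Cntnap5b, -0.041 to 0.25 for Caly and -0.15 to 0.089 for Cidea, so their signs are not settled. Genes called between odor and vehicle numbered 2, 9 with the replicate number as a replicate block (the labels tie same-numbered odor and vehicle pools by number alone; 3 of the 4 same-numbered pairs correlated at 0.28 to 0.38 and the other at -0.01, against -0.32 to 0.17 for different numbers) and 6 with 16 arrays and no block. Genes called between fractions in odor numbered 1359: 5741 with arrays centred, 896 with trend and robust, 2 with the pool as a replicate block, 2645 with that block and no vehicle pool 3, and 1 to 2570 leaving out a pool. Called relatives, 7, became 32, 3, 0, 13 and 0 to 12 in the same order. Without odor pool 1, 2, 3 or 4 the calls were 1, 2, 2 and 1, and without vehicle pool 1, 2, 3 or 4 they were 1303, 800, 2570 and 822. In vehicle, 0 genes and 0 relatives became 2314 and 7 with the replicate block and no vehicle pool 3, and 0 to 2180 and 0 to 6 leaving out a pool. Centring moved the median odor fraction difference from -0.08 to -0.43 and the share of higher calls from 65.6% to 17.7%. It shifts the odor difference of every gene by the same -0.35, so that Fxyd2 read -4.37 and S100a5 -1.51. For Avp (-2.42), Rfx4 (-2.03), Caly (-1.97) and Cidea (-1.49) that shift exceeded the SD over the odor pools. The cause of the changes in the numbers called was not tested. Cntnap5b had a mean below the negative-control median, so it fell out under the filter on dim genes.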
